A study of Mus musculus with 34 samples.

Results

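The β-adrenergic receptors and the proteins that make, remove, and read cAMP link noradrenaline to lipolysis and heat production in fat cells. Expression of 8 genes of this pathway was followed through adipogenesis of brown preadipocytes: the receptors *Adrb1* and *Adrb3*, the adenylyl cyclases *Adcy3* and *Adcy6*, the phosphodiesterase *Pde3b*, the protein kinase A (PKA) subunits *Prkar2b* and *Prkaca*, and the transcription factor *Creb1*. The 8 genes were chosen by name for their place in the pathway, with earlier results of these data known. All 8 were found, and they are 8 of the 23109 genes measured. The cells were brown preadipocytes of interscapular brown adipose tissue (BAT) of newborn C57BL/6J mice, immortalized with SV40T, a viral protein that keeps cells dividing. The labels give them a GR-flox/flox genotype, that is, a floxed glucocorticoid receptor gene, and describe an empty or a Cre vector without saying which was used for these libraries, whereas the methods speak of WT mice. WT and K36M cells carried a retrovirus for FLAG-tagged histone H3.3, either WT or with lysine 36 changed to methionine, which depletes H3K36 methylation. They were harvested before adipogenesis (D0) and at D2 and D7. The same WT and K36M cells with a second retrovirus for PPARγ, the nuclear receptor that drives adipogenesis, were treated while sub-confluent with DMSO (time 0 in the labels) or for 24 h with Rosi (rosiglitazone, a PPARγ ligand), without the induction medium. Ctrl and KD cells carried a lentivirus for a control shRNA or an shRNA against *Nsd2*, an H3K36 methyltransferase, and were collected at D0 and D2. For D0 to D2 the confluent cells received 0.02 μM insulin, 1 nM T3, 2 μg/ml dexamethasone, 0.125 mM indomethacin, and 0.5 mM IBMX, and afterwards only insulin and T3. IBMX inhibits phosphodiesterases and raises cAMP, so a change from D0 to D2 and the presence of IBMX cannot be told apart.

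In this pathway an agonist-bound β receptor acts through the stimulatory G protein Gs on adenylyl cyclases, which make cAMP from ATP. Phosphodiesterases break cAMP down, and PDE3B is the phosphodiesterase through which insulin limits lipolysis in adipocytes. PKA is a complex of regulatory subunits that bind cAMP and catalytic subunits that they hold inactive, and among its nuclear targets is CREB, which binds the cAMP response element (CRE). ADRB3 is known as the receptor typical of mature adipocytes, and ADRB1 as the receptor of proliferating brown preadipocytes.

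Levels are RPKM, the reads on a transcript scaled to transcript length and library total, so that levels of different genes can be set side by side. The 14 conditions had a single library each, hence no replicate spread to test against, and no test was made. Log2 ratios are given with a 95% interval (Clopper-Pearson) from the reads behind the RPKM, which covers counting error only and compares libraries, not conditions. A gene was said to rise or fall when its RPKM differed over 2-fold. Mapped reads ranged from 12213559 to 24365867 per library. *Nsd2* was at RPKM 19.9 and 29.0 in Ctrl cells and at 5.85 and 7.01 in KD cells at D0 and D2. The PPARγ K36M libraries stood apart in having 20121 and 19981 genes above 0, against 15868 to 18385 in the other 12 libraries. The summed RPKM of 8 adipocyte markers (*Pparg*, *Cebpa*, *Fabp4*, *Adipoq*, *Plin1*, *Cidec*, *Lpl*, and *Cd36*) ran from 45.7 in KD cells at D0 to 5886 in WT cells at D2. The brown adipocyte markers *Ucp1*, *Cidea*, and *Dio2* stayed at or below RPKM 0.194, 0.0973, and 0.0543 in every library, whereas *Prdm16* reached 3.36. Of the markers of other cells, the 3 endothelial genes summed to at most 0.934, the macrophage genes *Ptprc* and *Adgre1* stayed below 0.08, *Csf1r* reached 2.95, and the muscle genes *Myod1*, *Myog*, and *Myf5* stayed below 0.1 while *Acta1* reached 67.5, the last 2 maxima both in PPARγ K36M cells with DMSO.

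The regulatory DNA of 3 of the genes is shown because CREB, the last step of the pathway, reads the CRE in promoters. *Adrb1* and *Prkar2b* both rose by D2 in every population followed to D2. *Prkar2b* had the highest level of the 8 genes at D2 in WT cells, and *Prkaca* stayed within 2.10-fold across the 14 libraries. The windows are the 250 bases before the annotated start (RefSeq, GRCm38.p6), written 5′ to 3′ on the strand of the gene, with the CRE core TGACG or its reverse complement CGTCA in capitals. They are chr19:56721867-56722116 on the plus strand for *Adrb1*, chr12:32061278-32061527 on the minus strand for *Prkar2b*, and chr8:83972728-83972977 on the plus strand for *Prkaca*.
Adrb1: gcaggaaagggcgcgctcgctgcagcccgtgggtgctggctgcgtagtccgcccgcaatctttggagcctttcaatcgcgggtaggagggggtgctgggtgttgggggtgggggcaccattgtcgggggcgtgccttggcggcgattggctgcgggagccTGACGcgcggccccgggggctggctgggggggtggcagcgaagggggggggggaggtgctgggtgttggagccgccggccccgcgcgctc
Prkar2b: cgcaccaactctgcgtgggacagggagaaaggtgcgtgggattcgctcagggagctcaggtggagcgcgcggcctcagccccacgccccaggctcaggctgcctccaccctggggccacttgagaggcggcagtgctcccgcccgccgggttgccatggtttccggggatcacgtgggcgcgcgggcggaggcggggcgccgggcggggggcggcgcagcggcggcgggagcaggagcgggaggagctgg
Prkaca: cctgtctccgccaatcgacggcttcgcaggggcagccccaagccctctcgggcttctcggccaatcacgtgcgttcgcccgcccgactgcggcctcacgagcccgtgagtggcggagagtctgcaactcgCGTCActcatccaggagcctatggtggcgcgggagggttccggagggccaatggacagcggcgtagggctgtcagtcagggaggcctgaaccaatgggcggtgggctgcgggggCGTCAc
The *Adrb1* window held 1 CRE core, 90 bases before the start, the *Prkaca* window held 2, at 120 and 6 bases before the start, and the *Prkar2b* window held none. Promoter windows were found for 5 of the 8 genes, 8 windows in all, and those of *Adcy3* and *Creb1* had no CRE core either. The complete CRE TGACGTCA, which contains the core, was in none of the 8 windows and in 1.55% of 32851 windows of the same length, whereas the core was in 17.8% of them, both strands read. The letters TTGCNNAA, bound by C/EBP factors, were in none of the 8 and in 9.56% of all windows. GC content of the 8 windows lay between 50.8% and 75.6%, against a median of 52.4% over all windows. These matches describe letters and no binding was measured here.

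*Adrb1*, the β1 receptor (NM_007419, mm9 chromosome 19 from 56796862 to 56799352, plus strand), was expressed at a low level with a maximum at D2. In WT cells it stood at RPKM 1.75, 5.74, and 2.38 on D0, D2, and D7, and in K36M cells at 2.12, 4.77, and 1.38. The Ctrl libraries of D0 and D2 had 2.26 and 5.32, and the KD libraries 0.921 and 3.68. In the PPARγ libraries DMSO and Rosi gave RPKM 1.05 and 2.81 for WT and 1.27 and 2.79 for K36M cells. The 4 D2 libraries were the highest 4 of the 14, and within this order only the step from K36M to KD cells at D2 and the step from KD cells at D2 to PPARγ WT cells with Rosi exceeded counting error. Over the first 2 days *Adrb1* rose 3.29-fold in WT cells (log2 ratio 1.72, interval 1.37 to 2.07), 2.25-fold in K36M cells, 2.36-fold in Ctrl cells, and 4.00-fold in KD cells. It then fell 2.41-fold in WT cells (log2 ratio -1.27, interval -1.65 to -0.90) and 3.46-fold in K36M cells by D7. With Rosi it rose 2.68-fold in WT and 2.20-fold in K36M cells with PPARγ. Between K36M and WT cells the log2 ratio was -0.27 at D2 (-0.56 to 0.028) and -0.013 with Rosi (-0.43 to 0.40), both intervals holding 0, and -0.79 at D7 (-1.36 to -0.23). It was 2.45-fold lower in KD than in Ctrl cells at D0.

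**Figure D1:**
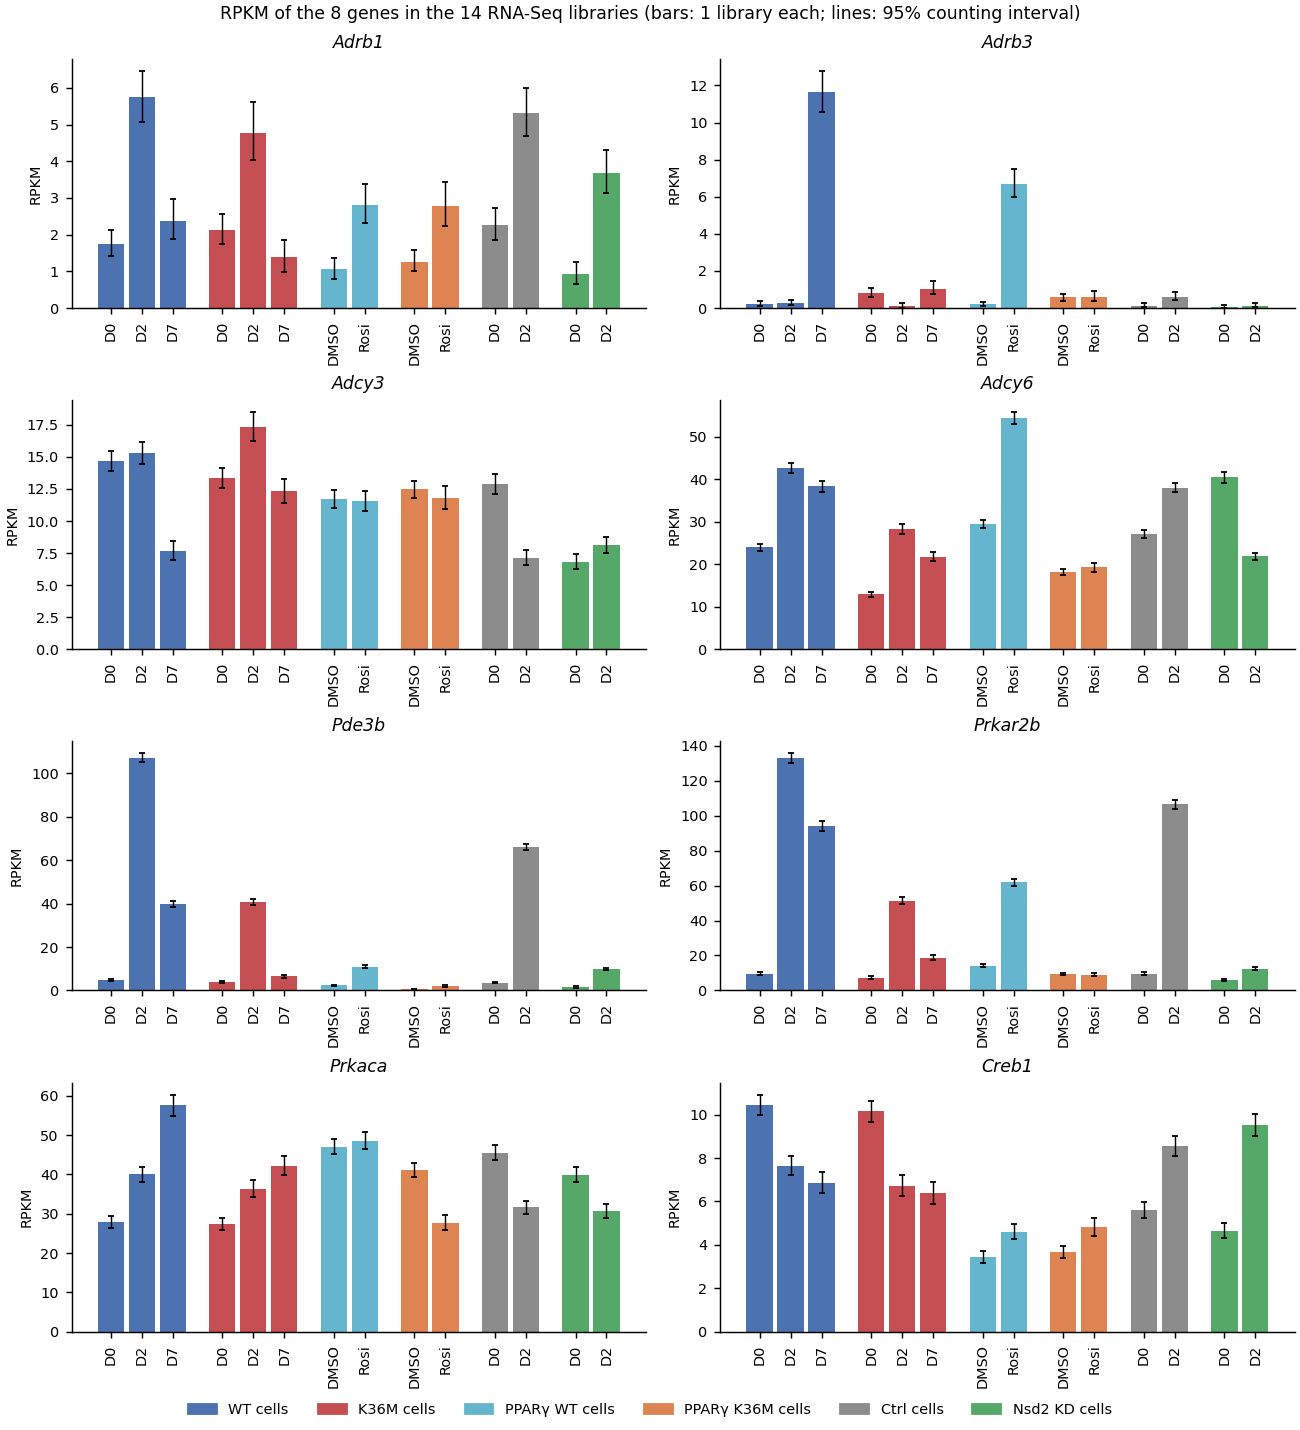
RPKM (vertical axes, linear from 0, a scale for each gene) of the 8 genes in the 14 libraries, grouped by cell population, with 1 bar per library and lines for the 95% counting interval of its reads. *Pde3b* and *Prkar2b* peaked at D2 in WT and Ctrl cells and were lower in K36M and KD cells, *Adrb3* was above RPKM 6 only in WT cells at D7 and PPARγ WT cells with Rosi, and *Prkaca* stayed between 27.4 and 57.6.

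*Adrb3*, the β3 receptor (NM_013462, chromosome 8 from 28336248 to 28340060, minus strand), was high in 2 libraries and near the lowest measurable level in most others. WT cells had RPKM 0.234, 0.262, and 11.6 on D0, D2, and D7 (14, 14, and 433 reads). K36M cells had 0.811, 0.114, and 1.05 (45, 4, and 36 reads). The WT library of D7 thus stood far above the other 5. Between D2 and D7 the gene rose 44.4-fold in WT cells (log2 ratio 5.47, interval 4.71 to 6.35) and 9.23-fold in K36M cells (3.21, 1.73 to 5.16), the latter from 4 reads. At D7 the level in K36M cells was 11.0-fold below that in WT cells (log2 ratio -3.46, interval -4.00 to -2.97). In the PPARγ libraries DMSO and Rosi gave RPKM 0.197 and 6.70 for WT and 0.573 and 0.593 for K36M cells. *Adrb3* thus rose 34.0-fold with Rosi in WT cells (5.09, 4.26 to 6.05), whereas in K36M cells the log2 ratio was 0.051 (-0.79 to 0.85). Among 11718 other genes found in both of these WT libraries and reaching RPKM 1 in either, 15 had a Rosi to DMSO ratio as high or higher (0.128%). Ctrl cells had 0.127 and 0.604 on D0 and D2, and KD cells 0.0411 and 0.122 (2 and 6 reads). It was 4.97-fold lower in KD cells at D2 (log2 ratio -2.31, interval -3.86 to -1.04), at levels below RPKM 1, where a few reads decide the ratio. Before adipogenesis or Rosi the difference between K36M and WT cells ran the other way: *Adrb3* was 3.46-fold higher in K36M cells at D0 (1.79, 0.90 to 2.77) and 2.90-fold higher with PPARγ and DMSO (1.54, 0.57 to 2.61), all 4 levels below RPKM 1. The summed adipocyte markers moved with *Adrb3* in part, and all 8 markers were lower in K36M than in WT cells both at D7 and with Rosi. In the PPARγ cells, however, reads of *Pparg* may include those of the retrovirus, so it is no clean marker there. Its RPKM was 60.2 in WT and 71.8 in K36M cells with PPARγ and DMSO, against 13.4 and 11.5 at D0 without that virus. The sums were at 5573 in WT and 522 in K36M cells at D7, and at 3848 and 1487 with Rosi. At D2 in WT cells the sum was at 5886 while *Adrb3* was at 0.262, but most of this sum came from *Fabp4* (3249) and *Lpl* (2145). These were at 2644 and 1817 on D7, whereas the other markers were all higher on D7 than on D2 in WT cells. Among them *Pparg* went from 66.7 to 101 and *Plin1* from 36.8 to 144. *Adipoq*, which encodes adiponectin, was at 6.16 on D2 against 287 on D7 and 132 with Rosi. The 5 preadipocyte markers summed to 289.8 in WT and 630.1 in K36M cells at D7. The part of these markers in the differences of *Adrb3* was not tested, and fewer adipocytes and less RNA of a gene per adipocyte cannot be told apart in such bulk libraries.

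The balance of the receptor subtypes turned over once in adipogenesis of WT cells and once with Rosi. *Adrb1* was above *Adrb3* by RPKM in 12 of the 14 libraries, in 11 of them beyond counting error, and *Adrb3* was above *Adrb1* only in WT cells at D7 and in PPARγ WT cells with Rosi. In WT cells the log2 ratio of *Adrb3* to *Adrb1* started at -2.90 (-3.82 to -2.08), was -4.45 on D2 (-5.34 to -3.68), and reached 2.29 on D7 (1.94 to 2.65). *Adrb1* was therefore 21.9-fold above *Adrb3* at D2 and *Adrb3* 4.88-fold above *Adrb1* at D7. The sizes rest on low levels: with a pseudocount of 1 added to each RPKM WT cells had a log2 ratio of -2.42 on D2 and 1.90 on D7, and the ratio moved beyond the counting interval in 12 of the 14 libraries without a change of sign. In K36M cells the log2 ratio was -1.39, -5.39, and -0.39 at D0, D2, and D7, and its interval at D7 held 0 (-1.07 to 0.29), so that the receptors did not differ there beyond counting error. With PPARγ the log2 ratio went from -2.41 with DMSO to 1.25 with Rosi in WT cells (0.94 to 1.57), and from -1.15 to -2.23 in K36M cells (-2.99 to -1.53). It lay between -4.92 and -3.14 in Ctrl and KD cells.

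The *Gnas* locus, which encodes the Gs α subunit, lay between RPKM 255 and 579 in all 14 libraries and in none of the 16 comparisons differed over 2-fold. Its value is that of NR_003258, a non-coding RefSeq transcript of the locus that had the highest mean RPKM of 9 overlapping ones and may share their reads, so it is no clean level of the coding transcript.

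**Figure D2:**
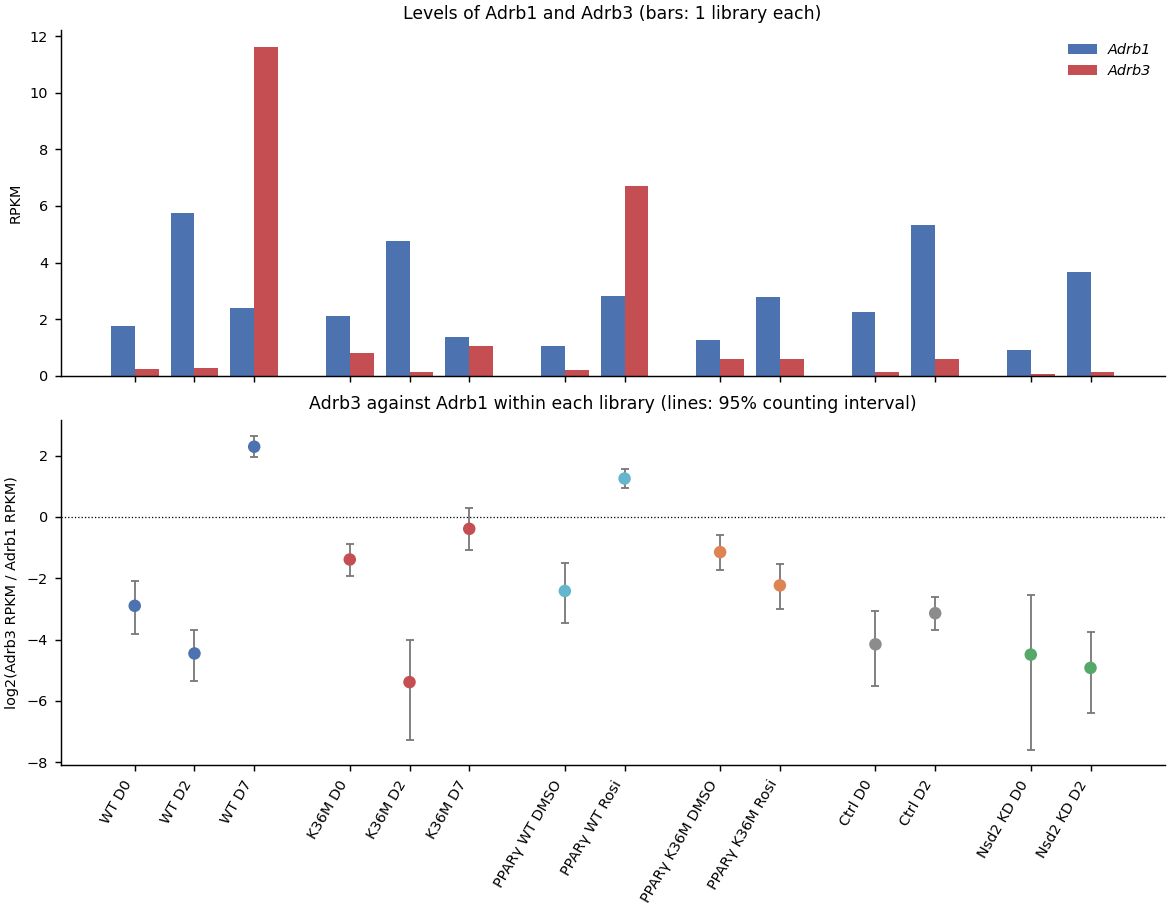
Upper panel, RPKM (linear axis) of *Adrb1* and *Adrb3* with 1 bar per gene and library. Lower panel, log2 ratio of *Adrb3* to *Adrb1* RPKM within each library (a point each, lines for the 95% counting interval, dotted line at equal levels), which was above 0 in WT cells at D7 (2.29) and PPARγ WT cells with Rosi (1.25) and below 0 in the other 12 libraries.

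Of the adenylyl cyclases, *Adcy6* (NM_007405, chromosome 15 from 98420425 to 98438064, minus strand) had the highest RPKM of the 10 cyclase genes in 13 of the 14 libraries. Its RPKM was 24.0, 42.6, and 38.4 in WT and 12.9, 28.3, and 21.8 in K36M cells at D0, D2, and D7. In the PPARγ libraries DMSO and Rosi gave RPKM 29.5 and 54.4 for WT and 18.1 and 19.3 for K36M cells. Each of the 5 K36M libraries was thus below the WT library of the same time or treatment. The log2 ratios of K36M to WT were -0.89 at D0 (-0.98 to -0.81), -0.59 at D2 (-0.66 to -0.52), -0.82 at D7 (-0.90 to -0.73), -0.70 with DMSO (-0.78 to -0.63), and -1.50 with Rosi (-1.58 to -1.41). Only the last passed 2-fold. The knockdown gave no common direction: *Adcy6* was at 27.1 and 38.1 in Ctrl cells and at 40.5 and 21.9 in KD cells at D0 and D2, higher in KD cells at D0 (0.58, 0.51 to 0.65) and lower at D2 (-0.80, -0.87 to -0.73). From D0 to D2 it rose in K36M cells (2.19-fold), whereas the ratio in WT cells was 1.78-fold. *Adcy6* made up 52.6% of the summed cyclase RPKM in WT and 33.0% in K36M cells at D0.

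*Adcy3* (NM_138305, chromosome 12 from 4133103 to 4213525, plus strand) moved little. Its RPKM was 14.7, 15.3, and 7.67 in WT and 13.3, 17.3, and 12.3 in K36M cells, 11.6 to 12.5 in the 4 libraries with PPARγ, 12.9 and 7.13 in Ctrl cells, and 6.82 and 8.10 in KD cells. None of the 16 comparisons within a population or with its control reached 2-fold, but its D2 level in Ctrl cells was 2.15-fold below that in WT cells. The nearest of the 16 was the decrease from D2 to D7 in WT cells at 1.997-fold (log2 ratio -0.998, interval -1.16 to -0.84). With another scaling of the libraries this decrease passed 2-fold. At D7 *Adcy3* was higher in K36M than in WT cells (0.68, 0.51 to 0.86), opposite to *Adcy6*, and in K36M cells at D0 the RPKM of both cyclases lay close together. Its gene overlaps *Cenpo* on the other strand over 17522 bases, 1380 of them exonic in both, and counting by strand is not stated, so part of its reads may be those of *Cenpo*. *Adcy5*, a cyclase outside the 8 genes, was nearly silent at D0 and rose in adipogenesis: its RPKM was 0.102, 5.44, and 10.1 in WT and 0.159, 5.11, and 0.663 in K36M cells. It was 15.2-fold lower in K36M cells at D7 and reached 15.5% of the cyclase sum in WT cells at D7, against 1.24% in K36M cells.

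*Pde3b* (NM_011055, chromosome 7 from 121558795 to 121682765, plus strand) had the largest rise of the 8 genes from D0 to D2 in each of the 4 populations. Its RPKM was 4.71, 107, and 39.7 in WT and 3.93, 40.8, and 6.54 in K36M cells at D0, D2, and D7. Ctrl cells had 3.58 and 66.04, and KD cells 1.56 and 9.92, on D0 and D2. It rose 22.8-fold in WT (log2 ratio 4.51, interval 4.38 to 4.64), 10.4-fold in K36M (3.37, 3.22 to 3.53), 18.4-fold in Ctrl (4.20, 4.05 to 4.36), and 6.34-fold in KD cells (2.67, 2.41 to 2.93). Among 12095 other genes found in both WT libraries and reaching RPKM 1 in either, 63 rose as much or more (0.521%). The level at D2 in K36M cells was 2.63-fold below that in WT cells (log2 ratio -1.39, interval -1.46 to -1.33) and that in KD cells 6.66-fold below that in Ctrl cells (-2.74, -2.84 to -2.64). By D7 it fell 2.70-fold in WT and 6.23-fold in K36M cells, which left a 6.08-fold difference (-2.60, -2.76 to -2.46). At D0 the difference between K36M and WT cells was small (-0.26, -0.45 to -0.07), whereas KD cells were already 2.29-fold below Ctrl cells. In the PPARγ libraries DMSO and Rosi gave RPKM 2.41 and 10.9 for WT and 0.707 and 2.00 for K36M cells. It rose with Rosi in both, 4.51-fold and 2.83-fold, and it was lower in K36M cells with DMSO (3.41-fold) and with Rosi (5.43-fold). With Rosi *Pde3b* stayed well below its D2 level in both WT and K36M cells. The Rosi cells differed from the D2 cells in ectopic PPARγ, sub-confluence, time, and the lack of the whole induction medium. These differences cannot be told apart.

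Within the family, *Pde3b* was the phosphodiesterase with the highest RPKM of the 16 listed in WT cells at D2 and D7 and in Ctrl cells at D2, and in none of the other 11 libraries. Its share of the summed RPKM of the 16 genes passed from 6.47% to 45.3% and 42.5% in WT cells over D0, D2, and D7, and from 9.84% to 31.1% and 9.07% in K36M cells. It was 46.4% in Ctrl and 14.04% in KD cells at D2. *Pde4d*, a cAMP-specific phosphodiesterase whose transcription cAMP itself is known to raise, was the highest in K36M cells at D2.

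*Prkar2b*, which encodes the RIIβ regulatory subunit typical of adipose tissue and brain (NM_011158, chromosome 12 from 32643341 to 32746161, minus strand), followed a course close to that of *Pde3b*. Its RPKM was 9.61, 133, and 93.8 in WT and 7.33, 51.4, and 18.8 in K36M cells at D0, D2, and D7. Ctrl cells had 9.56 and 106, and KD cells 5.93 and 12.4, on D0 and D2. By D2 it rose 13.8-fold in WT (log2 ratio 3.79, interval 3.68 to 3.90), 7.01-fold in K36M (2.81, 2.67 to 2.95), 11.1-fold in Ctrl (3.48, 3.36 to 3.60), and 2.09-fold in KD cells (1.07, 0.88 to 1.25). It was 2.58-fold lower in K36M cells at D2 (-1.37, -1.44 to -1.30), 4.99-fold lower at D7 (-2.32, -2.43 to -2.21), and 8.57-fold lower in KD cells at D2 (-3.10, -3.21 to -2.99). Unlike *Pde3b*, it stayed high in WT cells from D2 to D7, with a ratio of -0.50 on the log2 scale, and fell 2.74-fold in K36M cells. In the PPARγ libraries DMSO and Rosi gave RPKM 14.3 and 61.9 for WT and 9.53 and 8.89 for K36M cells. *Prkar2b* thus rose 4.33-fold with Rosi in WT cells, and in K36M cells its log2 ratio was -0.10 (-0.28 to 0.079). The summed adipocyte markers were also lower in the perturbed cells at D2, in 7 of 8 markers in K36M (all but *Adipoq*) and in 8 of 8 in KD cells. They were at 2127 in K36M against 5886 in WT cells and at 163 in KD against 2538 in Ctrl cells at D2, and their part in the differences of *Prkar2b* and *Pde3b* was not tested.

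With these changes the make-up of the PKA regulatory subunits shifted. *Prkar1a*, which encodes the widely expressed RIα, lay between RPKM 63.4 and 107.8 in all libraries. The share of *Prkar2b* in the summed RPKM of the 4 regulatory genes was, in order of D0, D2, and D7, 7.04%, 52.0%, and 43.3% in WT against 4.79%, 28.6%, and 13.2% in K36M cells. It was 7.53% and 51.5% in Ctrl and 4.02% and 8.71% in KD cells at D0 and D2. *Prkar2b* was above *Prkar1a* in WT and Ctrl cells at D2 (1.38-fold and 1.42-fold) and in no other library. With Rosi its share was 38.8% in WT and 8.35% in K36M cells, from 10.6% and 6.79% with DMSO. The neuronal-type RIβ gene *Prkar1b* moved the other way at D2, at RPKM 0.776 in WT, 5.15 in K36M, 0.509 in Ctrl, and 4.56 in KD cells.

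*Prkaca*, the catalytic subunit Cα (NM_008854, chromosome 8 from 86496877 to 86520344, plus strand), was the steadiest of the 8 genes, with a highest to lowest ratio of 2.10 over the 14 libraries. Its RPKM was 27.8, 40.0, and 57.6 in WT and 27.4, 36.4, and 42.2 in K36M cells. It was 45.5 and 31.7 in Ctrl cells and 39.9 and 30.7 in KD cells. In the PPARγ libraries DMSO and Rosi gave 47.0 and 48.6 for WT and 41.1 and 27.8 for K36M cells. It passed 2-fold in 1 comparison, the rise from D0 to D7 in WT cells (2.07-fold, log2 ratio 1.05, interval 0.95 to 1.15). The summed RPKM of the 4 regulatory genes against the 2 catalytic genes was 2.22 at D0 and 4.02 at D2 in WT cells, 2.02 and 4.11 in Ctrl cells, and between 2.18 and 3.11 in the 7 libraries of K36M and KD cells. It was also within that range in WT cells at D7 (2.74) and in PPARγ WT cells with DMSO (2.25) and Rosi (2.57). Only WT and Ctrl cells at D2 thus stood above it.

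*Creb1* (NM_133828, chromosome 1 from 64579378 to 64651121, plus strand) also moved little. Its RPKM was 10.4, 7.63, and 6.85 in WT and 10.2, 6.72, and 6.38 in K36M cells, 5.59 and 8.54 in Ctrl cells, and 4.65 and 9.51 in KD cells. With PPARγ it lay between 3.45 and 4.82. In each of the 5 comparisons of K36M with WT cells its log2 ratio lay between -0.18 and 0.088, so that *Creb1* was within 1.14-fold of its WT level in the K36M libraries. It rose from D0 to D2 in KD cells (2.04-fold, 1.03, 0.90 to 1.17), whereas the log2 ratio was 0.61 in Ctrl, -0.45 in WT, and -0.59 in K36M cells.

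**Figure D3:**
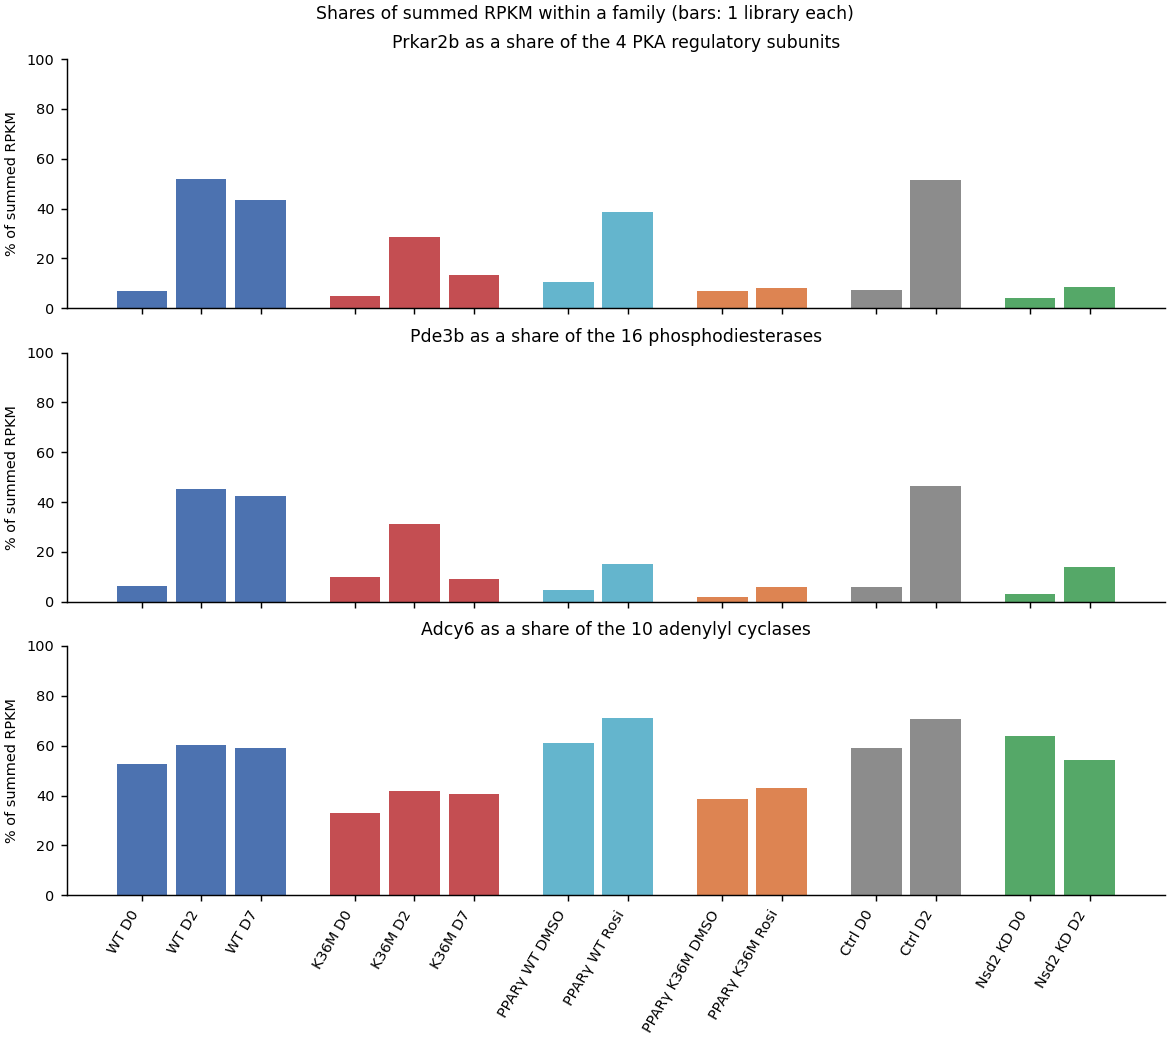
Share (%, axes from 0 to 100) of summed RPKM that *Prkar2b* made up among 4 PKA regulatory subunits, *Pde3b* among 16 phosphodiesterases, and *Adcy6* among 10 adenylyl cyclases, with 1 bar per library coloured by cell population. *Prkar2b* and *Pde3b* passed 40% only in WT cells at D2 and D7 and in Ctrl cells at D2, and *Adcy6* ran from 33.0% to 71.0%.

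Set against all genes with an RPKM above 0 in 1 or both of the libraries in question, the members' calls were as follows. From D0 to D2, 3 of 8 rose in WT cells and none fell, beside 13.6% and 25.2% of 17591 genes. In K36M cells 4 rose and 1, *Adrb3*, fell (background 16.5% and 19.6%). In Ctrl cells 4 rose and none fell (17.3% and 23.4%), and in KD cells 5 rose and none fell (16.9% and 24.5%). Both counts include *Adrb3*, on 7 and 34 reads in Ctrl cells and on 2 and 6 in KD cells. In KD cells its interval held 0 (-0.92 to 4.91). Without *Adrb3*, which was below RPKM 1 in these libraries, the counts were 3 and 4. *Adrb1*, *Pde3b*, and *Prkar2b* were among the risers in all 4 populations. From D2 to D7 only *Adrb3* rose and *Adrb1* and *Pde3b* fell in WT cells (22.4% and 12.2%), whereas in K36M cells *Adrb3* rose and *Adrb1*, *Pde3b*, and *Prkar2b* fell (21.5% and 14.9%). Over the whole course from D0 to D7 in WT cells, *Adrb3*, *Pde3b*, *Prkar2b*, and *Prkaca* rose and none fell (15.6% and 17.4%). The members' median log2 ratio from D0 to D2 was 0.68 in WT, 0.77 in K36M, 0.92 in Ctrl, and 1.05 in KD cells, beside medians over all genes between -0.073 and 0.00062.

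With Rosi, *Adrb1*, *Adrb3*, *Pde3b*, and *Prkar2b* rose in PPARγ WT cells and none fell, beside 17% and 16.2% of 19592 genes. In PPARγ K36M cells *Adrb1* and *Pde3b* rose and none fell (18.3% and 15%). The difference between the responses of K36M and WT cells was -5.03 for *Adrb3* (log2 scale, interval -6.16 to -3.90), -2.22 for *Prkar2b* (-2.42 to -2.01), -0.79 for *Adcy6* (-0.90 to -0.68), -0.67 for *Pde3b* (-1.10 to -0.24), and -0.61 for *Prkaca* (-0.76 to -0.47). The responses of *Adrb1* (-0.28, -0.92 to 0.35), *Adcy3* (-0.056, -0.24 to 0.13), and *Creb1* (-0.023, -0.25 to 0.20) did not differ beyond counting error.

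For D0 to D2 the response in K36M minus that in WT cells was -1.14 for *Pde3b* (-1.33 to -0.94), -0.98 for *Prkar2b* (-1.16 to -0.80), -0.55 for *Adrb1* (-1.04 to -0.052), and -2.99 for *Adrb3* (-4.81 to -1.17), the last on 4 reads at D2 in K36M cells. It was 0.32 for *Adcy3* (0.15 to 0.48) and 0.30 for *Adcy6* (0.19 to 0.42), and the intervals of *Prkaca* and *Creb1* held 0. From D2 to D7 the difference was -2.26 for *Adrb3* (-3.94 to -0.59), -1.21 for *Pde3b* (-1.37 to -1.05), and -0.95 for *Prkar2b* (-1.08 to -0.82). The response in KD minus that in Ctrl cells from D0 to D2 was -2.41 for *Prkar2b* (-2.63 to -2.19), -1.54 for *Pde3b* (-1.83 to -1.24), and 0.76 for *Adrb1* (0.17 to 1.35), the last from a lower start in KD cells. It was 1.10 for *Adcy3* (0.88 to 1.32), -1.38 for *Adcy6* (-1.48 to -1.28), 0.14 for *Prkaca* (0.00035 to 0.29), and 0.42 for *Creb1* (0.24 to 0.60). For *Adrb3* it was -0.69 with an interval that held 0 (-3.28 to 1.90).

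**Figure D4:**
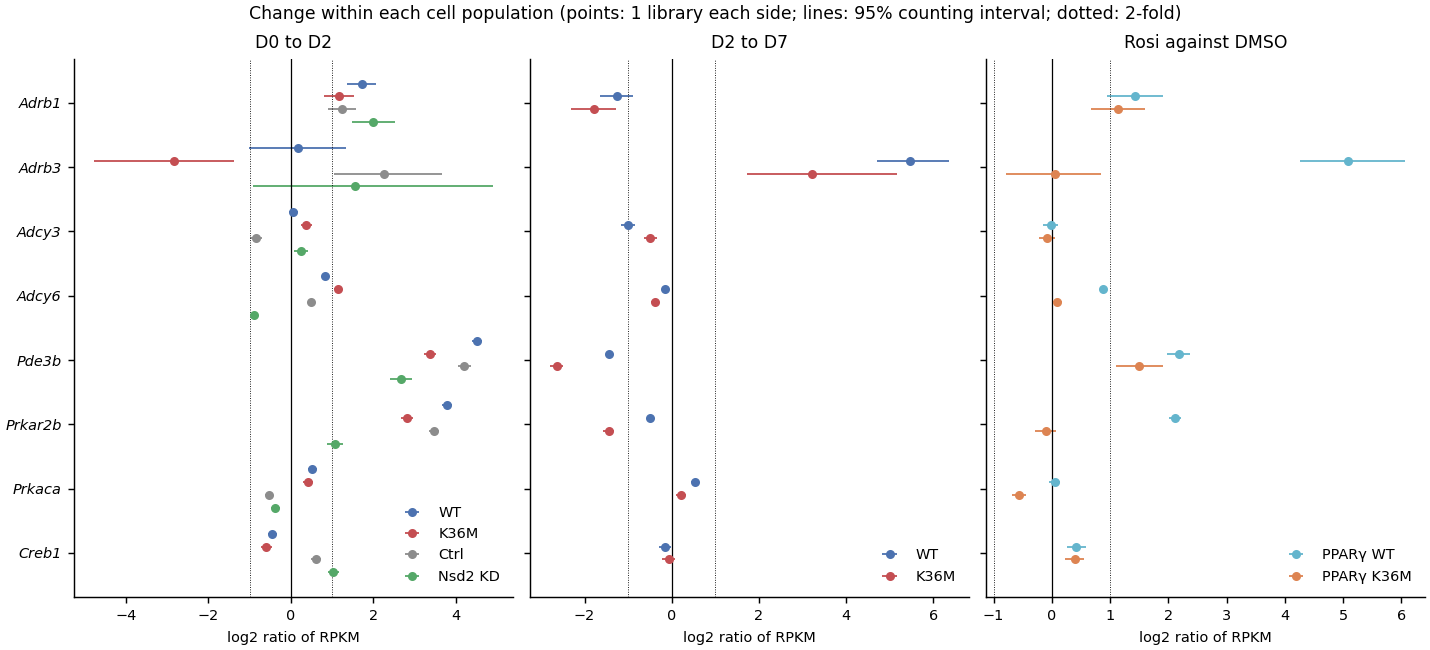
Log2 ratios of RPKM (horizontal axes, a scale for each panel) within each population from D0 to D2, from D2 to D7, and with Rosi against DMSO, with a point for each gene and population, lines for the 95% counting interval, and dotted lines at 2-fold. *Pde3b* and *Prkar2b* rose less from D0 to D2 in K36M and KD cells than in WT and Ctrl cells, and the log2 ratio of *Adrb3* with Rosi was 5.09 in WT and 0.051 in K36M cells.

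Set directly against the control library of the same time, members of the perturbed cells were mostly lower where they differed, except for *Adrb3* in K36M cells at D0 and with DMSO. At D0 *Adrb3* was higher in K36M than in WT cells and no member was lower, beside 14.8% up and 12% down of 17861 genes. At D2 *Adrb3*, *Pde3b*, and *Prkar2b* were lower and none was higher (9.9% down and 22.2% up of 17798 genes), but the interval of *Adrb3* held 0 (-1.20, -3.26 to 0.47). The same 3 genes were lower at D7 and none was higher (13.2% down and 19.7% up). With PPARγ and DMSO *Pde3b* was lower and *Adrb3* higher in K36M cells (8.31% down and 23.9% up). With Rosi *Adrb3*, *Adcy6*, *Pde3b*, and *Prkar2b* were lower and none was higher (12.6% down and 28.4% up of 20699 genes). In KD against Ctrl cells *Adrb1*, *Adrb3*, and *Pde3b* were lower at D0 and none was higher (18.1% down and 13.5% up), with 2 and 7 reads behind *Adrb3*. At D2 *Adrb3*, *Pde3b*, and *Prkar2b* were lower and none was higher (18.5% down and 12% up of 17209 genes). The comparisons of D0 to D2 within a population and those at D0 or D2 between populations share libraries, as do those with PPARγ, so they are not separate evidence.

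**Figure D5:**
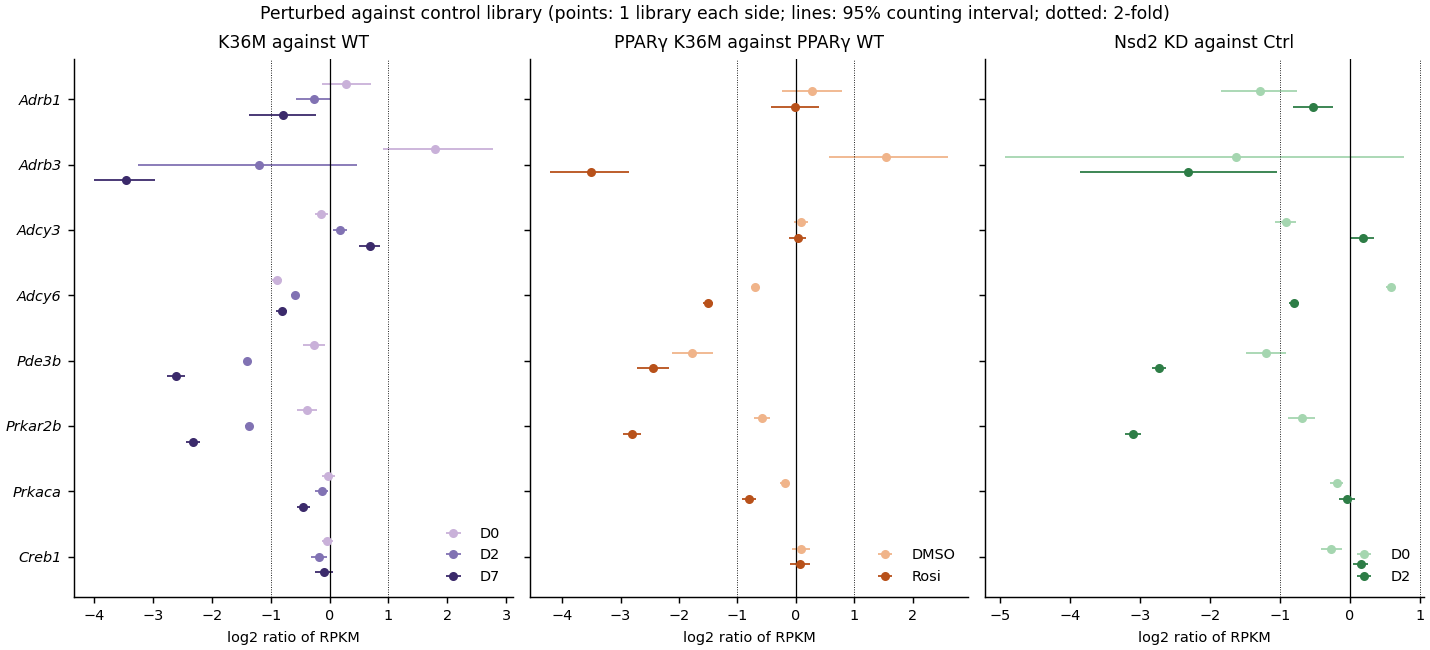
Log2 ratios of RPKM (horizontal axes, a scale for each panel) of K36M to WT cells at D0, D2, and D7, of PPARγ K36M to PPARγ WT cells with DMSO and Rosi, and of KD to Ctrl cells at D0 and D2, with lines for the 95% counting interval and dotted lines at 2-fold. *Pde3b* and *Prkar2b* lay below -1 at D2 in K36M and KD cells, at D7 in K36M cells, and with Rosi, *Adrb3* was above 0 at D0 and with DMSO in K36M cells and below 0 later, and *Creb1* lay near 0 throughout.

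The Ctrl and WT populations, both meant as controls, carried different viruses and also differed from each other. At D0 the log2 ratio of Ctrl to WT was -0.90 for *Creb1* (-1.02 to -0.79), 0.71 for *Prkaca* (0.61 to 0.81), and -0.0077 for *Prkar2b* (-0.17 to 0.15). At D2 it was -1.10 for *Adcy3* (-1.24 to -0.96), -0.70 for *Pde3b* (-0.74 to -0.65), -0.32 for *Prkar2b* (-0.36 to -0.27), and -0.11 for *Adrb1* (-0.36 to 0.14). For *Adrb3* the D2 ratio was 1.20 (0.27 to 2.22), on 34 reads in Ctrl and 14 in WT cells. The direction from D0 to D2 differed for *Prkaca*, with log2 ratios of 0.52 in WT and -0.52 in Ctrl cells, and for *Creb1*, with -0.45 and 0.61, so neither gene had a common course over these days. The decreases of *Pde3b* at D2 in K36M cells (-1.39) and in KD cells (-2.74) and those of *Prkar2b* (-1.37 and -3.10) were larger than the differences between the controls. For *Adrb3* the decrease at D2 in K36M cells (-1.20) was no larger than the difference between the controls, and that in KD cells was -2.31.

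The other genes of the pathway were taken from a list of 77, of which 69 are not members. From D0 to D2, 20 of the 67 measured in WT cells rose and 17 fell, beside 13.6% and 25.2% of all genes. In Ctrl cells 19 and 17 of 65 did so, beside 17.3% and 23.4%. With the members counted in, and by role, 6 of 9 cAMP-induced genes rose in WT cells and none fell, although *Ucp1* and *Dio2* among the 6 stayed below RPKM 0.2. Of the receptors 3 rose and 3 fell of 8, of the cyclases 5 and 3 of 10, of the phosphodiesterases 5 and 5 of 16, of the PKA subunits 1, *Prkar2b*, and 1 of 6, and of the CREB family and its coactivators 1, *Crem*, rose of 8. The median log2 ratio of the whole list was -0.0061 in WT and 0.055 in Ctrl cells, close to those of all genes (-0.044 and 0.00062). Of the 55 list genes that reached RPKM 5 in any library, 14 rose in both WT and Ctrl cells and 8 fell in both, beside 5.07% and 10.8% of 10520 genes at that level. Besides *Adrb1*, *Pde3b*, and *Prkar2b* the 14 included *Adra2a*, *Gnai1*, *Adcy5*, *Pde4b*, *Pde4d*, *Pde10a*, *Crem*, *Nr4a1*, *Per1*, and *Ppargc1a*. The 8 were the α1 receptors *Adra1b* and *Adra1d*, *Adcy7*, *Pde2a*, *Pde4a*, *Prkar1b*, the PKA inhibitor *Pkia*, and the anchor *Akap12*.

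Of the 14 genes, 8 fell again from D2 to D7 in WT cells, namely *Adrb1*, *Pde3b*, *Adra2a*, *Pde4b*, *Pde4d*, *Pde10a*, *Crem*, and *Nr4a1*. Over all 10520 genes, 533 rose in both WT and Ctrl cells by D2 and 28.5% of these fell by D7 in WT cells. *Nr4a1*, an early nuclear receptor gene induced by cAMP and other signals, was at RPKM 4.61, 65.6, and 6.19 in WT cells and at 4.88, 78.0, and 5.22 in K36M cells at D0, D2, and D7. *Pde4d* was at 4.49, 53.2, and 4.80 in WT and 3.55, 43.1, and 5.66 in K36M cells. *Crem*, a CREB relative whose short product represses cAMP-driven transcription, was at 1.78, 7.30, and 2.56 in WT and 2.00, 4.85, and 3.08 in K36M cells. These 3 genes, picked after their values were seen, rose in WT, K36M, Ctrl, and KD cells from D0 to D2. None of these differed over 2-fold between K36M and WT cells at D2 (log2 ratios 0.25, -0.30, and -0.59). Others of the 8 did not all behave so. *Pde4b* was at RPKM 12.9, 41.5, and 8.84 in WT and at 4.57, 8.34, and 1.76 in K36M cells at D0, D2, and D7. By D2 in K36M cells, *Adrb1*, *Pde3b*, and *Pde10a* rose over 2-fold, but *Pde4b* and *Adra2a* did not. Of 9 listed cAMP-induced genes, 2, *Ppargc1a* among them, were down over 2-fold in K36M against WT cells at D2 and none was up, beside 9.9% and 22.2% of all genes. Those 2 genes were below RPKM 2 in both libraries. In KD against Ctrl cells at D2 the log2 ratio was 1.13 for *Nr4a1*, -1.06 for *Pde4d*, and -0.30 for *Crem*. With Rosi, in sub-confluent cells without the induction medium, the log2 ratios of *Nr4a1*, *Pde4d*, and *Crem* in PPARγ WT cells were -0.36, 0.041, and 0.22. *Adrb1* also rose by D2 and fell by D7 in WT and K36M cells, and unlike these genes it rose with Rosi.

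Of the same 55 genes, not all of which reached RPKM 5 at D2, 7 were lower at D2 in both K36M and KD cells and 2 were higher, beside 1.63% and 1.63% of 10520 genes. The 7 included *Adrb3*, *Pde3b*, and *Prkar2b* with *Adra1d*, *Gnai1*, and *Ppargc1a*, and the 2 were *Adcy7* and *Prkar1b*. *Adrb3*, *Adra1d*, *Ppargc1a*, and *Adcy7* were below RPKM 5 in all 4 D2 libraries, and the interval of *Adrb3* in K36M against WT cells held 0. *Gnai1*, an inhibitory G protein α subunit, was at RPKM 13.6 in WT and 1.52 in K36M cells and at 12.1 in Ctrl and 4.61 in KD cells. *Ppargc1a*, the coactivator PGC-1α that cAMP induces in brown fat, was at 1.08 in WT and 0.136 in K36M cells and at 2.36 in Ctrl and 0.666 in KD cells at D2, and at 6.32 in WT against 0.228 in K36M cells at D7. *Adcy7* was at 0.353 in WT and 3.68 in K36M cells and at 0.326 in Ctrl and 2.16 in KD cells. Over the 69 other genes, 13 were higher and 14 lower of 68 in K36M against WT cells at D2, beside 22.2% and 9.9% of all genes, and 10 higher and 16 lower of 66 in KD against Ctrl cells, beside 12% and 18.5%. The α2 receptor *Adra2a*, which acts against the β receptors through Gi, did not share a direction: it was at 11.97 in WT and 7.87 in K36M cells but at 6.51 in Ctrl and 42.5 in KD cells.

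With Rosi in PPARγ WT cells, 13 of the 55 genes rose and 2 fell, beside 9.71% and 4.61% of 10520 genes. Besides *Adrb1*, *Adrb3*, *Pde3b*, and *Prkar2b*, the 13 included *Gnai1*, *Adcy5*, *Adcy9*, *Pde1a*, *Pde1b*, *Akap1*, *Nr4a2*, and *Ppargc1a*, and the 2 that fell were *Adra1b* and *Adcy7*. *Adrb1*, *Adcy5*, *Adcy9*, and *Ppargc1a* were below RPKM 5 in both of these libraries and reached it elsewhere. Rosi took *Adcy5* from RPKM 0.0363 to 3.99 in WT and from 0.251 to 1.89 in K36M cells. *Akap1*, which anchors PKA to mitochondria, was at 23.7 and 48.3 in WT and at 22.7 and 40.9 in K36M cells.

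Across all 14 libraries the highest to lowest ratio of RPKM was 283 for *Adrb3*, 152 for *Pde3b*, 22.4 for *Prkar2b*, 6.23 for *Adrb1*, 4.21 for *Adcy6*, 3.03 for *Creb1*, 2.54 for *Adcy3*, and 2.10 for *Prkaca*. When the libraries were ordered by level, 10 of the 13 steps between neighbours exceeded counting error for *Pde3b* and for *Prkar2b*, 8 for *Adcy6*, 6 for *Creb1*, 5 for *Prkaca*, 3 for *Adcy3* and for *Adrb3*, and 2 for *Adrb1*. How many steps exceed counting error depends on reads as well as on levels, and *Adrb3* had 2 to 433 reads against 91 to 10822 for *Pde3b*. The lowest level of *Adrb3*, in KD cells at D0, rested on 2 reads, so the size of its range is uncertain.

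For each member the 3 genes with the most similar course were taken by Pearson correlation of log2(RPKM + 0.1) over the 14 libraries, among the 10520 genes that reached RPKM 5 in any library. The libraries share cells, days, and adipocyte content, so these values are a description. *Pde3b* was most like *Col15a1* (0.971), *Ssh2*, and *Clec16a*, and *Prkar2b* was most like *Acsl1* (0.962), *Aldh1a7*, and *Lipe* (0.946), the last encoding hormone-sensitive lipase. *Adrb3* was most like *Sntb1* (0.851), *Pnpla3*, and *Slc5a6*, and *Adrb1* was most like *Rhot1* (0.936), *Ipp*, and *Rccd1*. *Creb1* was most like *Pggt1b* (0.969), *Rif1*, and *Fam168b*, *Prkaca* most like *R3hdm4* (0.95), *Pmvk*, and *Ppm1m*, and *Adcy6* most like *Ltbp3* (0.876), *Wdr34*, and *Hlx*. The genes most like *Adcy3* were *Rgs16* (0.871), 4933417G07Rik, and *Cenpo* (0.813), the gene it overlaps. No member was among the 3 genes most like another. With a pseudocount of 1 in place of 0.1, *Pde3b* kept only 1 of its 3 genes, *Ssh2*. *Adrb3* and *Prkar2b* kept 2, *Lipe* being the one that *Prkar2b* lost, and the other members kept all 3.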

How the data were processed

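The 14 RNA-Seq libraries of the series were used, 1 per condition, and the ChIP-Seq samples were not analysed here. The methods describe mRNA isolation with Dynabeads, NEBNext Ultra II libraries, and Illumina HiSeq sequencing. The authors deposited 1 RPKM value per library for each of 29082 RefSeq transcripts (reads on it, scaled to transcript length and library total). The read mapper and the counter were not given in the sources used here. Symbols were assigned from RefSeq, and positions and overlaps of the members were taken from the GENCODE M1 annotation (mm9). The transcript with the highest mean RPKM stood for its gene, which gave 23109 genes. Whole reads were recovered from the steps of the RPKM for all 26946 transcripts above 0 in at least 2 libraries. Ratios of RPKM with 95% Clopper-Pearson intervals of these reads replaced tests, since no condition had replicates. Intervals of a difference of 2 log2 ratios combined the counting errors of 4 libraries. A change was called over 2-fold. The recovery of reads and the intervals were checked on simulated libraries. Alternatives were another scaling, pseudocounts of 0.1 and 1, RPKM of at least 1, a 1.5-fold threshold, intervals that exclude a ratio of 1, and a second transcript. Intervals cover counting error only, and how far they understate the spread between cultures is unknown. The 8 members and the lists of pathway genes and markers were chosen with earlier results of these data known. Named besides the members were *Gnas*, the markers, *Nsd2*, the 3 genes most like each member, and list genes reaching RPKM 5 that changed over 2-fold the same way from D0 to D2 in WT and Ctrl cells, at D2 in both perturbed cells, or with Rosi in PPARγ WT cells. A listed gene that is included in the counts of the list is not reported here. *Prkar1a* and the genes given as examples were picked after their values were seen. Python 3.11.15, numpy 2.4.6, pandas 2.3.3, scipy 1.17.1, and matplotlib 3.10.9 were used.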

Additional observations from a re-analysis of the deposited data

Results flagged for a closer look

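In 2 cases the response from D0 to D2 had opposite signs in KD and Ctrl cells. *Adcy3* had a log2 ratio of 0.25 in KD and -0.85 in Ctrl cells, a difference of 1.10, and its D2 level in Ctrl cells was also below that in WT cells (log2 ratio -1.10). *Adcy6* had a log2 ratio of -0.89 in KD and 0.49 in Ctrl cells, a difference of -1.38. With 1 library per condition neither difference was tested, and part of the reads of *Adcy3* may be those of *Cenpo*.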

How the results depend on the processing

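Another scaling of the libraries, a pseudocount of 0.1, the demand that the interval excludes a ratio of 1, and a second transcript of *Adcy3* and *Creb1* left all 32 counts of members over 2-fold, 2 directions in each of 16 comparisons, within 1.5 times the values given. Within that margin, the other scaling gave 3 rather than 2 members down from D2 to D7 in WT cells, by adding *Adcy3*. Because several members, *Adrb3* above all, lie near or below RPKM 1, a pseudocount of 1 lowered 10 counts beyond that margin: to 1 member down from D2 to D7 in WT cells, to 0 down from D0 to D2 and 0 up from D2 to D7 in K36M cells, to 2 up from D0 to D2 in Ctrl and 2 in KD cells, to 0 up in K36M against WT cells at D0, to 0 up with Rosi in PPARγ K36M cells, to 0 up and 0 down in PPARγ K36M against WT cells with DMSO, and to 0 down in KD against Ctrl cells at D0. Within the margin it lowered further counts, such as members up from D0 to D2 in K36M cells, from 4 to 3. It also leaves no gene over 2-fold that is below RPKM 1 in both libraries. *Adrb3* thereby dropped out at D2 in K36M against WT and in KD against Ctrl cells. Beyond the margin, asking for an RPKM of at least 1 gave 0 members down from D0 to D2 in K36M cells, 0 up in K36M against WT cells at D0, and 0 up in PPARγ K36M against WT cells with DMSO, each time by dropping *Adrb3*. Within the margin, dropping *Adrb3* also left 2 rather than 3 members down in K36M against WT cells at D2. The same held in KD against Ctrl cells at D0 and at D2. From D0 to D2 it left 3 rather than 4 members up in Ctrl cells and 4 rather than 5 in KD cells. Beyond the margin, a threshold of 1.5-fold gave 2 members down from D0 to D7 in WT cells, 2 down from D0 to D2 in K36M cells, 1 in Ctrl, and 1 in KD cells, 1 down in K36M against WT cells at D0, 1 up and 5 down at D7, 2 down with PPARγ and DMSO, and 5 down in KD against Ctrl cells at D0. No ratio over 2-fold changed direction under these alternatives, but the rescaling turned 3 ratios near 0: *Adrb1* in PPARγ K36M against WT cells with Rosi from -0.013 to 0.063, *Prkaca* with Rosi in PPARγ WT cells from 0.047 to -0.027, and *Prkaca* in KD against Ctrl cells at D2 from -0.045 to 0.038. The rescaling shifted the median of all genes by over 0.1 (log2) only in K36M against WT cells at D7, by -0.12. No paired analysis was possible because each condition had 1 library and the labels give no replicate numbers. Depth limits *Adrb3*, which had 2 to 45 reads outside WT cells at D7 and PPARγ WT cells with Rosi.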
